A study of Mus musculus with 6 samples.

Results

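The genes described here encode the secreted growth factors, receptors and immediate intracellular partners of the TGF beta and BMP, FGF, EGF, PDGF, IGF and Eph pathways. Members were chosen by gene symbol, from families such as Tgfb, Bmp, Smad, Fgf, Egfr, Pdgf, Igfbp, Eph, Efn and Id, among probes to which the platform annotation gives 1 symbol. The rule found 72 probes of 54 genes, of 21888 probes in the deposited table. Of these, 66 probes of 51 genes had a value on at least 4 of 6 arrays and were tested. The other 6 probes, among them the only ones of 3 genes, are given by their values alone.

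TGF beta, activin and BMP ligands bind paired serine/threonine kinase receptors that phosphorylate Smad proteins. Receptor Smads join Smad4, enter the nucleus and switch genes such as those of the Id family, which encode inhibitors of helix-loop-helix transcription factors. FGF, EGF, PDGF and IGF ligands bind receptor tyrosine kinases, and Eph receptors read ephrins on the surface of neighbouring cells. In the embryonic pancreas, mesenchymal FGF signals sustain the growth of epithelial progenitors, and TGF beta family signals bear on the balance of endocrine and exocrine cells.

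The arrays compared pancreas RNA of Sox4-/- embryos, homozygous for a knock-out of this SoxC transcription factor gene, with pancreas RNA of Sox4 wild-type littermates, both at embryonic day 12.5. No strain, sex, agent or treatment is given in the labels, which ask for changes across the genome when Sox4 is absent. Per the label of arrays 1 and 2, pancreases were pooled into 2 groups before RNA isolation and the RNA was amplified, so the 6 arrays may be repeats of 1 pool per genotype. The p-values therefore measure only how far arrays differ, which may be technical. Values are log2 ratios centred on the median of each array. The numerator is taken to be the knockout. This reading is likely but not certain, since it rests on the order of the channels and on the titles. A mean above 0 is thus likely higher in the RNA labelled knockout. The labels show no swap of the channels on any array and do not give the dyes. A probe's channel bias and a difference between the RNAs therefore cannot be told apart. In whole-organ RNA, fewer cells of a type and less RNA per cell cannot be told apart.

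Arrays fell into 2 sets. Spearman's rho over all probes, which are not independent, was 0.52 between arrays 1 and 2 and 0.44 to 0.58 among arrays 3 to 6, against 0.06 to 0.32 across the sets. Array 2 had the widest ratios (median absolute deviation 0.545, and 0.27 to 0.442 on the rest). Of the marker lists for other cell types, liver genes had 4 of 6 genes past the threshold under 0, at a list median of -0.92 and array medians from -1.20 to -0.60. Mesenchyme had 1 of 6 under 0 (median -0.09), neuron and neural crest 2 of 2 above 0 (0.39), erythroid 1 of 4 above 0 (-0.06) and leukocyte 1 of 2 on each side (0.15). A gene counts here if any of its probes passed, as 8.21% of all tested genes did. By probe, 7 of 11 passed for liver and 1 of 12 for mesenchyme, against 5.49% of all probes. For neuron and neural crest it was 2 of 7, and for erythroid 1 of 27. None of 2 epithelial (0.04) and 5 progenitor genes (0.15) passed, nor did Emcn, the 1 endothelial marker measured (-0.05). The part of these cell types in the results was not tested.

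Of the 66 tested signalling probes, 6 were past an adjusted p of 0.05, which is 9.09%, against 5.49% of all 21247 tested probes. Probes of Fgfr1op2, Fgf12, Smad5, Igfbp2 and Id3 were above 0, and the probe of Tgfbr3 was under 0. The 5 above 0 made up 7.58% of the tested signalling probes, against 1.96% of all probes, and the 1 under 0 made up 1.52%, against 3.53%. Counted by gene, 6 of 51 had such a probe, 11.8% against 8.21% of all 10818 tested genes. The median mean ratio was 0.07 over the signalling probes and 0.03 over all probes. Without centring of the arrays the ratios rose by 0.10 at the median, and the Tgfbr3 probe no longer passed. Over all probes, 35.7% of the calls were above 0 with centring and 67.5% without it. Of all 21247 probes, 416 were called above 0 with centring and 849 without it. The signalling probes called above 0 numbered 5 in both fits, so their excess over all probes was smaller without centring. At an unadjusted p under 0.05 there were 15 signalling probes above 0 and 11 under 0, 39.4% of the tested signalling probes against 27.6% of all probes.

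**Figure D1:**
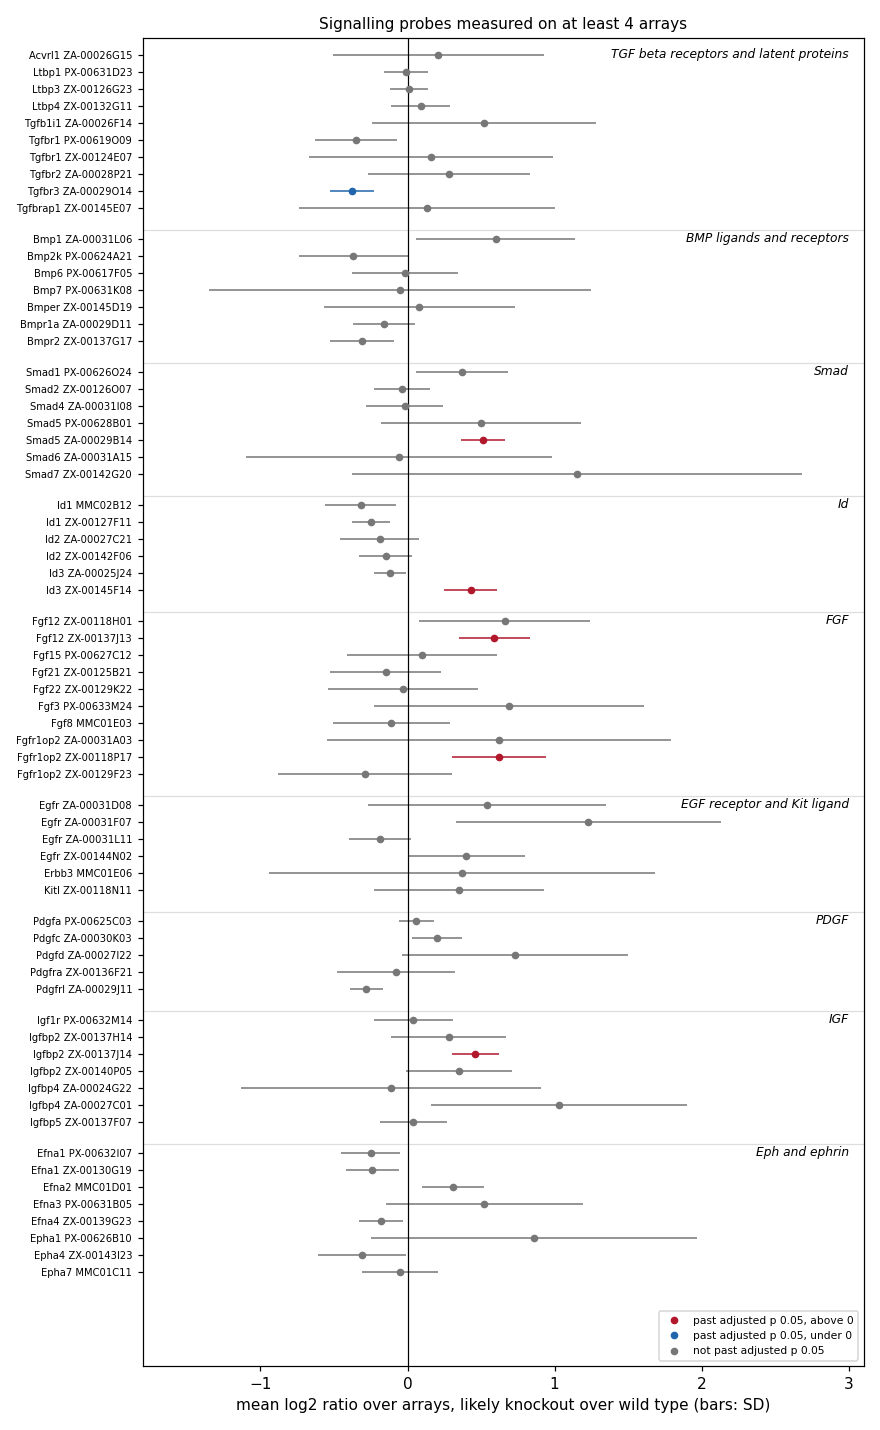
Mean log2 ratio (horizontal axis, likely knockout over wild type) of each of the 66 tested signalling probes, grouped by family, with bars for the SD over 4 to 6 arrays. The 5 red probes and the 1 blue probe, at an adjusted p under 0.05, lie at 0.43 to 0.62 and at -0.38, and several grey probes with larger means, such as Egfr at 1.23 and Smad7 at 1.15, have wide bars.

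The calls were close to the threshold, with limma adjusted p-values from 0.0302 to 0.0433. None of the 6 passed with arrays 3 to 6 alone, where 0.0518% of all probes did, or with arrays 1 and 2 alone, where 0% did. The same held without array 1, 3, 4, 5 or 6, where 0.0377% to 0.151% of all probes passed. Without array 2, when 4% of all probes passed, the Smad5, Tgfbr3 and Fgf12 probes still did. With the array set as a term in the fit, 1 passed, the Smad5 probe, at an adjusted p of 0.0443, where 3.27% of all probes passed. Each of the 6 kept its sign under every alternative run. Of the 66 probes, 17 were on the same side of 0 on every array measured, 11 above and 6 under, which is 25.8% against 22.4% of all probes.

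**Figure D2:**
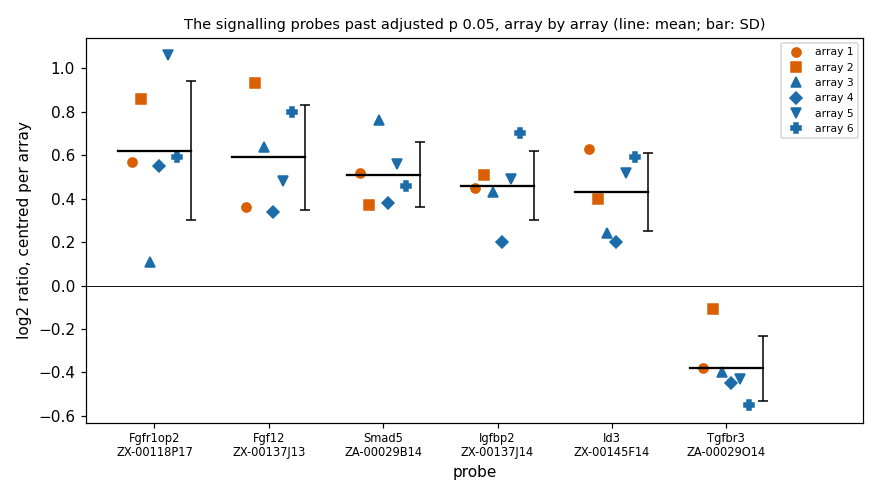
Log2 ratio of the 6 probes past an adjusted p of 0.05 on each array (vertical axis), with arrays 1 and 2 in orange and arrays 3 to 6 in blue, a line at the mean and a bar for the SD. All 6 arrays of Fgfr1op2, Fgf12, Smad5, Igfbp2 and Id3 lie above 0, and all 6 of Tgfbr3 lie under 0, with array 2 nearest to 0 at -0.11.

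Receptors of TGF beta held the 1 signalling probe past the threshold under 0. Tgfbr3 encodes betaglycan, a co-receptor that presents TGF beta ligands to the signalling receptors. Its probe ZA-00029O14 had log2 ratios of -0.38, -0.11, -0.40, -0.45, -0.43 and -0.55 on arrays 1 to 6. All arrays were under 0, with array 2 the closest to 0. The mean was -0.38 ± 0.15 (SD, n = 6 arrays), a 1.31-fold lower ratio with an adjusted p of 0.0429. Arrays 1 and 2 averaged -0.24 and arrays 3 to 6 averaged -0.46. Without centring the mean was -0.28, with an adjusted p of 0.0682.

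The signalling receptors themselves did not pass. Tgfbr1, the type I receptor, was at -0.35 ± 0.28 at the probe PX-00619O09 (adjusted p 0.109), where 5 of 6 arrays were under 0, from -0.65 to -0.09, and array 6 was at 0.05. Its other probe, ZX-00124E07, was at 0.16 ± 0.83 and spanned -0.92 to 1.60. Tgfbr2, the type II receptor, was at 0.28 ± 0.55 on 4 arrays, and Acvrl1, a type I receptor of endothelial cells, at 0.21 ± 0.72 on 5 arrays. The latent TGF beta binding proteins, which hold the ligand in the matrix, had narrow values near 0. Ltbp1 was at -0.01 with a 95% interval of -0.19 to 0.17, Ltbp3 at 0.01 (-0.16 to 0.19) and Ltbp4 at 0.09 (-0.13 to 0.30). Symbols that match the family name but encode cytoplasmic partners were at 0.52 ± 0.76 for Tgfb1i1, a focal adhesion adaptor, and at 0.13 ± 0.87 for Tgfbrap1, a receptor-associated protein.

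No BMP ligand or receptor passed. The smallest p belonged to Bmpr2, the type II BMP receptor, whose 6 arrays were all under 0, at -0.06, -0.21, -0.46, -0.07, -0.51 and -0.55. Its mean was -0.31 ± 0.22 (adjusted p 0.101). Bmpr1a, a type I receptor, was at -0.16 ± 0.21 at its tested probe. Its 2 other probes had 3 values each, at -1.46, 0.46 and 1.86 on arrays 2, 4 and 6 for MMC01D02 and at -1.33, -1.51 and 0.93 on arrays 1, 2 and 4 for MMC01F11. The Entrez ID given for these 2 probes, and that for the Erbb3 probe, had no match in the mouse RefSeq table used. Whether these probes measure the mouse genes is thus not known. The values of the 2 untested Bmpr1a probes lay on both sides of 0, and the tested probe had 5 of 6 arrays under 0.

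Among the ligands, Bmp6 was at -0.02 ± 0.36. Bmp7, which is made in many embryonic epithelia, was at -0.05 ± 1.30 because array 1 stood at -2.38 and array 2 at 1.51, so its interval of -1.14 to 1.03 sets no narrow limit. Bmp2 had values on arrays 1, 2 and 6 only, at 1.37, -0.81 and 2.66. Bmp1, a protease that matures collagen and frees BMPs from an antagonist, was at 0.60 ± 0.54 (n = 5, adjusted p 0.138). Bmper, a secreted BMP modulator, was at 0.08 ± 0.65, and Bmp2k, a kinase named for its induction by BMP2, at -0.37 ± 0.37.

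Among 6 measured Smad genes, 1 had a probe past the threshold, above 0, where 8.21% of all tested genes had one in either direction. Smad5 is a receptor Smad of the BMP branch, and its probe ZA-00029B14 had log2 ratios of 0.52, 0.37, 0.76, 0.38, 0.56 and 0.46 on arrays 1 to 6. No array was near 0, and the 2 array sets overlapped. The mean was 0.51 ± 0.15 (SD, n = 6), a 1.42-fold higher ratio with an adjusted p of 0.0302, the smallest among the signalling probes. The second Smad5 probe, PX-00628B01, had nearly the same mean with much more spread, 0.50 ± 0.68 (adjusted p 0.23). It was at -0.15 and -0.17 on arrays 1 and 2 and at 0.27 to 1.62 on arrays 3 to 6. Averaged over both probes, Smad5 was at 0.50 with an adjusted p of 0.0787.

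Smad1, the closest relative of Smad5 in the BMP branch, was above 0 on all 5 of its arrays, at 0.30, 0.73, 0.12, 0.65 and 0.05 on arrays 1 to 5. Its mean of 0.37 ± 0.31 had an adjusted p of 0.145. Smad2, of the TGF beta and activin branch, was at -0.04 with an interval of -0.24 to 0.17. Smad4, the partner shared by both branches, was at -0.02 with an interval of -0.27 to 0.24. The inhibitory Smads were measured loosely. Smad6 was at -0.06 ± 1.04 on 4 arrays, and Smad7 at 1.15 ± 1.53 on 5 arrays, from -0.32 to 3.63.

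Id genes, common targets of BMP and Smad signalling, were measured by 6 probes, of which 5 had means under 0, with and without centring, and did not pass. Both Id1 probes were under 0 on all 6 arrays. MMC02B12 had -0.06, -0.05, -0.62, -0.22, -0.48 and -0.46, a mean of -0.32 ± 0.24 with an adjusted p of 0.108. ZX-00127F11 had -0.08, -0.37, -0.42, -0.17, -0.22 and -0.25, a mean of -0.25 ± 0.13 with an adjusted p of 0.0866. The 2 Id2 probes were at -0.19 ± 0.27 and -0.15 ± 0.18, with arrays on both sides of 0.

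The probes of Id3 disagreed. ZX-00145F14 was at 0.63, 0.40, 0.24, 0.20, 0.52 and 0.59 on arrays 1 to 6, all above 0, with a mean of 0.43 ± 0.18 and an adjusted p of 0.0428. The other probe, ZA-00025J24, was at -0.01, -0.15, -0.30, -0.10, -0.14 and -0.02, all under 0, with a mean of -0.12 ± 0.11 and an adjusted p of 0.293. The first exceeded the second on 6 of 6 arrays, by 0.55 ± 0.13. An exact two-sided test by sign flips gave p = 0.0312, the smallest that 6 arrays allow, and 0.109 after adjustment over the 7 probe pairs compared, a number of pairs at which such a p could pass only if more pairs reached it. The call for Id3 thus rests on 1 of 2 probes, and the average over both was 0.15 (adjusted p 0.214).

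**Figure D3:**
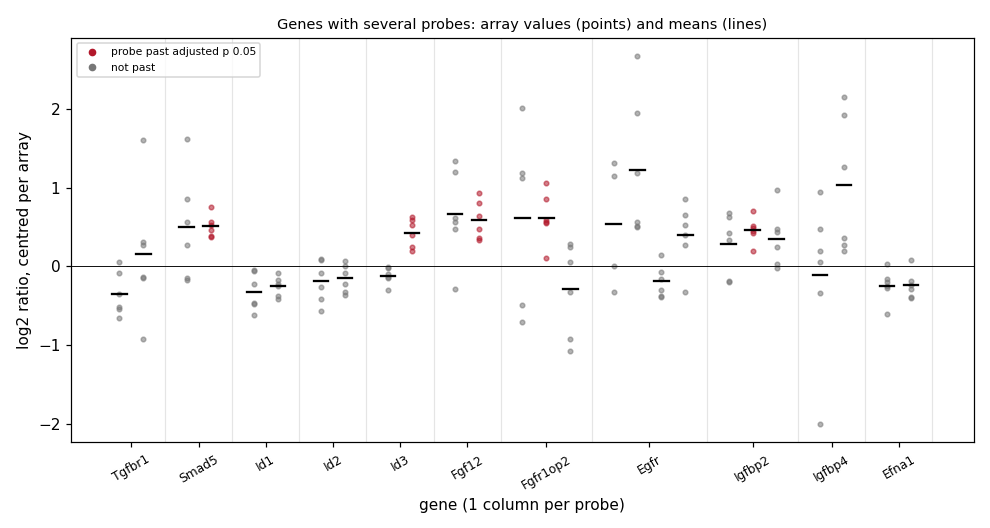
Log2 ratios on each array (points, vertical axis) and means (lines) for the 11 genes with several tested probes, 1 column per probe, with probes past an adjusted p of 0.05 in red. The columns of Smad5, Fgf12 and Igfbp2 have means on the same side of 0, whereas those of Id3, Fgfr1op2, Egfr, Tgfbr1 and Igfbp4 have means on both sides.

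In the FGF family, taken by symbol, 2 of 7 measured genes had a probe past the threshold, both above 0. Over all tested genes the share was 8.21%, in either direction. Fgf12 encodes an intracellular FGF homologue that acts on sodium channels rather than as a secreted ligand. Its probe ZX-00137J13 had 0.36, 0.93, 0.64, 0.34, 0.48 and 0.80 on arrays 1 to 6, all above 0. The mean was 0.59 ± 0.24, a 1.51-fold higher ratio with an adjusted p of 0.0349. The second probe, ZX-00118H01, had a mean of 0.66 ± 0.58 and was above 0 on 5 of 6 arrays, with array 1 at -0.29 (adjusted p 0.109). The 2 probes differed by -0.06 ± 0.49 (exact sign flips, p = 0.781). Averaged over both, Fgf12 was at 0.62 with an adjusted p of 0.0522.

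Fgfr1op2 was named for its fusion with FGFR1 in leukaemia and is no part of the FGF receptor. Its probe ZX-00118P17 was at 0.57, 0.86, 0.11, 0.55, 1.06 and 0.59, all above 0, with array 3 the lowest. The mean was 0.62 ± 0.32, with an adjusted p of 0.0433. Another probe, ZX-00129F23, was at -0.29 ± 0.59, lower than the first on 6 of 6 arrays by 0.91 ± 0.52 (exact p = 0.0312, adjusted 0.109). The remaining probe, ZA-00031A03, was at 0.62 ± 1.17 on 5 arrays. Averaged over its probes, Fgfr1op2 was at 0.26 with an adjusted p of 0.447.

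The secreted FGF ligands did not pass. Fgf8, a ligand of the early embryo, was at -0.11 ± 0.40 and Fgf3 at 0.69 ± 0.92 (n = 5). The hormone-like ligands Fgf15 and Fgf21 were at 0.10 ± 0.51 and -0.15 ± 0.38. Fgf22 was at -0.03 ± 0.51 at one probe, and at -3.32, 0.18 and -0.45 on arrays 1, 3 and 4 at the other. Of the 37 pathway genes chosen for a known part in pancreas development, 13 had a probe among the members. The remaining ones, such as Fgf10 and its receptor Fgfr2, were not analysed here.

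None of the EGF receptor family or Kit ligand probes passed. Egfr, the receptor of EGF, was measured by 4 probes that did not share a direction. ZA-00031F07 was above 0 on all 6 arrays, at 1.95, 0.51, 2.67, 0.50, 1.18 and 0.56, with a mean of 1.23 ± 0.90 and an adjusted p of 0.0709. Of its ratios, 66.7% were quotients of whole numbers up to 20, within 0.0006 in log2. ZX-00144N02 was at 0.40 ± 0.40, ZA-00031D08 at 0.54 ± 0.81 on 4 arrays, and ZA-00031L11 at -0.19 ± 0.21. Averaged over its probes Egfr was at 0.49, with an adjusted p of 0.0387, in a fit with 1 value per gene in which 5.82% of genes passed. Erbb3, a relative that binds neuregulins, was at 0.37 ± 1.31, and Kitl, the ligand of Kit, at 0.35 ± 0.58.

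PDGF genes had no call among 5 measured. Pdgfrl, a secreted protein similar to the ligand-binding part of the PDGF receptor, was under 0 on all 6 arrays, at -0.23, -0.34, -0.47, -0.18, -0.24 and -0.22. Its mean of -0.28 ± 0.11 had an adjusted p of 0.0607. Without centring the mean was -0.18 (adjusted p 0.143). It passed in 5 of the alternative fits, such as the one restricted to probes with values on all 6 arrays, at an adjusted p of 0.0447, and in none of those without 1 array (0.0786 to 0.146). The ligands Pdgfa, Pdgfc and Pdgfd were at 0.06 ± 0.12, 0.20 ± 0.17 and 0.73 ± 0.77. Pdgfra, a receptor that also marks mesenchyme, was at -0.08 ± 0.40, with array 2 at -0.88 and the others from -0.06 to 0.19.

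In the IGF group, 1 of 4 measured genes had a probe past the threshold, above 0. Over all tested genes the share was 8.21%, in either direction. The call was at 1 of 3 Igfbp2 probes. Igfbp2 encodes a secreted protein that binds IGFs and limits their access to the receptor. Its probe ZX-00137J14 had 0.45, 0.51, 0.43, 0.20, 0.49 and 0.70 on arrays 1 to 6, all above 0. The mean was 0.46 ± 0.16, a 1.38-fold higher ratio with an adjusted p of 0.0351. The means of the other probes were also above 0, at 0.35 ± 0.36 for ZX-00140P05 and 0.28 ± 0.39 for ZX-00137H14, with array values down to -0.02 and -0.20. Neither differed from the first beyond the spread, by 0.11 ± 0.32 (exact p = 0.5) and 0.18 ± 0.43 (exact p = 0.312). Averaged over its probes, Igfbp2 was at 0.37 with an adjusted p of 0.0822.

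Per the probe names, the called Igfbp2 and Fgf12 probes sit in adjacent wells of 1 source plate. The wells on either side of this pair were at -0.11 for Pantr2 and 0.22 for Plscr3. The well next to the called Id3 probe, of Dhx33, was at 0.40, close to the Id3 value of 0.43, but did not pass (adjusted p 0.142). Wells beside the called Smad5 probe were at 0.20 and 0.18, those beside Fgfr1op2 at 0.02 and 0.21, and those beside Tgfbr3 at 0.16 and 0.31. None of these neighbours passed the threshold. An unnamed probe 2 wells from Fgf12, ZX-00137J11, passed under 0, at -0.41 (adjusted p 0.0374). An effect of plate position was not tested.

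Igf1r, the receptor of IGF1 and IGF2, was at 0.04 with a 95% interval of -0.23 to 0.30. Igfbp5, which is stored in the matrix, was at 0.04 (-0.20 to 0.27). Igfbp4, an inhibitory binding protein, had probes at 1.03 ± 0.87 (adjusted p 0.0954) and -0.11 ± 1.02. Of the ratios of its higher probe, 83.3% were quotients of small whole numbers. Igfbp7 had values of -0.19, -1.14 and 1.22 on arrays 1, 3 and 5, and 1 more array held the ceiling value, treated as missing.

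Eph receptors and ephrins had no call among 7 measured genes, and 5 of their 8 tested probes had means under 0, or 4 without centring. Efna1, a membrane-anchored A-type ephrin, had nearly equal means at its 2 probes, -0.25 ± 0.20 and -0.24 ± 0.18 (adjusted p 0.145 and 0.133), each with 5 of 6 arrays under 0. Efna4 was at -0.18 ± 0.15. Efna2 was above 0 on all 6 arrays, from 0.18 to 0.72, with a mean of 0.31 ± 0.21 (adjusted p 0.0951), the smallest p of this family. It was furthest from 0 on array 2. Efna3 was at 0.52 ± 0.67. Among the receptors, Epha4, known from axon guidance, was at -0.31 ± 0.30, Epha7 at -0.05 ± 0.26 and Epha1 at 0.86 ± 1.11, with array 6 at 2.97. Efnb1, a transmembrane ephrin, had 3 values, all under 0, at -0.95, -2.47 and -3.31 on arrays 2, 5 and 6.

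Other genes of these pathways, in lists that do not overlap with the members, had few calls. Of 11 measured TGF beta and BMP partners, such as Ski, Smurf2 and Bambi, none passed. Of 17 measured FGF and receptor tyrosine kinase partners, Nrp1 passed under 0. Nrp1 encodes neuropilin-1, a co-receptor of VEGF and semaphorins, and its probe ZA-00025M20 had -0.67, -1.44, -0.34, -0.67, -0.91 and -0.97 on arrays 1 to 6. The mean was -0.83 ± 0.37 with an adjusted p of 0.0344. Its other probes were at -0.38, 0.07 and 0.11, so they did not share a direction. No probe of the feedback inhibitors in this list passed. Both Dusp6 probes were at 0.07, Spry1 at -0.08 and Spred1 at 0.07. Il17rd was at -0.25 ± 0.26, with 5 of 6 arrays under 0, and Errfi1, which restrains the EGF receptor, at 0.59 ± 0.46 on 4 arrays. The FGF-responsive transcription factor genes Etv1 and Etv5 were at -0.08 for Etv1 and at -0.19 and 0.23 for the Etv5 probes.

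Of 9 measured IGF and PI3 kinase partners, Grb10 passed under 0. Grb10 encodes an adaptor that restrains insulin and IGF receptors, and its probe ZX-00140D11 had -0.53, -0.47, -1.02, -0.70 and -0.69 on the 5 arrays measured, with a mean of -0.68 ± 0.21 and an adjusted p of 0.0344. Its other probes were at -0.22 and 0.09. Of 8 measured Eph and ephrin partners, Sdcbp passed under 0. Sdcbp encodes syntenin-1, which binds the tails of B-type ephrins, and its 6 arrays lay between -0.42 and -0.24, at a mean of -0.34 ± 0.06 and an adjusted p of 0.0368. Together, 3 of these 45 genes passed, all under 0, which is 6.67% against 8.21% of all genes.

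**Figure D4:**
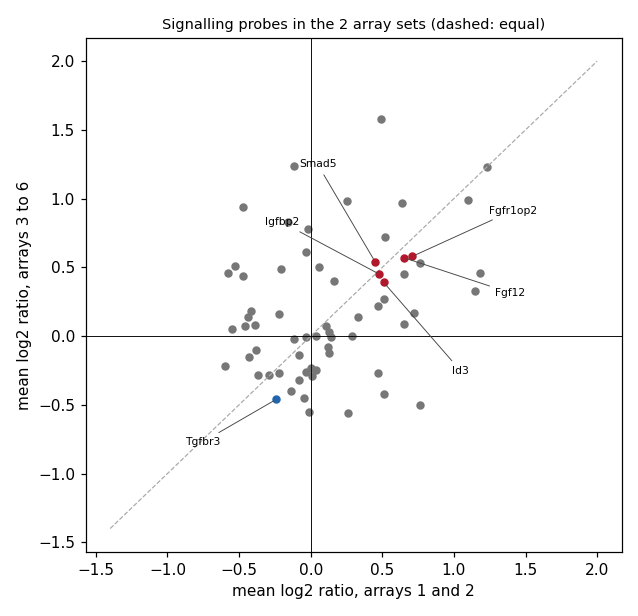
Mean log2 ratio of each tested signalling probe over arrays 1 and 2 (horizontal axis) and over arrays 3 to 6 (vertical axis), with the probes past an adjusted p of 0.05 labelled by gene, red above 0 and blue under 0. Of the 66 probes, 25 have opposite signs in the 2 sets, and the 6 labelled probes have the same sign in both.

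Between the 2 array sets, 41 of the 66 probes had means of the same sign and 25 of opposite sign. The difference between the sets passed an adjusted p of 0.05 for none of the signalling probes and for 0% of all probes. At an unadjusted limma p under 0.05 it passed for 8 of 66, against 15.4% of all probes. These 8 were probes of Bmp6, Fgf3, Fgf21, Fgf22, Id1, Smad5, Igfbp2 and Egfr. Among them, Bmp6 averaged -0.42 on arrays 1 and 2 and 0.18 on arrays 3 to 6 (p 0.0181), and the Smad5 probe PX-00628B01 averaged -0.16 and 0.83 (p 0.0412).

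Fixed strings of the SOX binding motif, and not its other forms, were searched for near the starts of these genes. Promoter windows of RefSeq (GRCm38.p6), from 250 bases before to 50 after a gene's start, were at hand for 40 of the 54 genes, in 56 windows. The 7-letter strings AACAAAG and AACAATG, searched on both strands, occurred in 1 of these windows, 1.79%, against 9.36% of all 32851 windows. GC content had a median of 64.7% in the signalling windows and 52.7% in all windows, and its part in the difference was not tested. Of the 5 genes with a call and a window, none held a string, and no window of Tgfbr3 was used. The one match lay in the window of Efna4, 177 bases before the start, on the gene's strand at chr3:89338179-89338225 (minus strand of GRCm38.p6), and is written here with the string in capitals.
Efna4: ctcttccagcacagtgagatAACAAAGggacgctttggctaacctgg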

How the data were processed

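Each of 6 spotted arrays with 2 channels compared pancreas RNA of Sox4 knockout embryos with that of wild-type littermates. The authors' deposited table gives 1 log2 ratio per probe and array. The sources used here do not give how the arrays were scanned, background-corrected and normalized, which dyes were used or which way the ratio runs. Signal over background was not analysed here, and precision is limited by the number of arrays. The ceiling value of 16.61, log2 of a ratio of 100000, was treated as missing. The median of each array was subtracted, and 21247 of 21888 probes, those measured on at least 4 arrays, were tested. The mean ratio of a probe was compared with 0 by limma 3.58.1 (lmFit, eBayes, two-sided) in R 4.3.3. P-values were adjusted by Benjamini-Hochberg over all these probes, with a threshold of 0.05. Intervals are limma's 95% intervals. The fit was tested on simulated data.

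Members were found by symbol in the platform annotation, and 52 of 54 genes had the same symbol at their Entrez ID in the RefSeq table of assembly GRCm38.p6 at every probe. Named were every member past the threshold, textbook members of pancreas development, and the smallest p in each family without a call. The remaining tested members, given by their means, were named outside this rule after their values were seen. Genes of the pathway lists are named where past the threshold, and other genes of those lists and the genes in wells next to a called probe were chosen after their values were seen. Members, lists and tests were chosen with earlier results of these data known. Probes of a gene were compared by exact sign flips over arrays. Figures were drawn with matplotlib 3.10.9.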

Additional observations from a re-analysis of the deposited data

Results flagged for a closer look

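The values of each of the 66 tested signalling probes were searched for a single array whose gap to its nearest neighbour, as a share of the range, was above Dixon's 95% critical value for that number of arrays. Such an array was found for 4 probes, and chance alone picks about 1 in 20. For 3 of them it was array 2. There, the Efna2 probe MMC01D01 had 0.72 while the remaining arrays lay between 0.18 and 0.28, the Fgf21 probe ZX-00125B21 had -0.90 with the rest between -0.21 and 0.10, and the Pdgfra probe ZX-00136F21 had -0.88 with the rest between -0.06 and 0.19. On array 4 the Erbb3 probe MMC01E06 had 2.63 while the rest lay between -0.78 and 0.12, and its mean was -0.19 without that array.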

How the results depend on the processing

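Over all probes, the count past the threshold was 1166. It was 1791 with scale normalization, 2752 with array weights, 694 with the array set as a term, 11 with arrays 3 to 6 alone, 0 with arrays 1 and 2 alone and 630 genes with 1 value per gene, and it ran from 8 to 849 without 1 array. Of signalling probes, 6 passed, of 6 genes. Both counts were 5 without centring, 8 with scale normalization and 9 with array weights. They were 7 with quantile normalization, values on all 6 arrays or without probes of mostly whole-number quotients. In these fits 8.17%, 9.23% and 8.63% of all probes passed. The counts of probes and of genes were 1 with the array set as a term, 0 with arrays 3 to 6 or 1 and 2 alone, 2 with 1 value per gene (Egfr and Tgfbr3), and 0 to 3 without 1 array. Above 0 the count was 5, and over all probes it was 416, or 600 with scale normalization. The values that follow are for signalling probes. The count above 0 was 6 with scale normalization, 1 with the set as a term, 0 in either set alone, 1 with 1 value per gene and 0 to 2 without 1 array. Over all probes the count under 0 was 750, and 1724 with array weights. Under 0 the count of signalling probes was 1. It was 0 without centring, with the set as a term or in either set alone, 2 with quantile or scale normalization, values on all 6 arrays or without probes of mostly whole-number quotients, 4 with array weights, and 0 to 1 without 1 array. The fits on fewer arrays have fewer residual degrees of freedom. For the other changes the cause was not tested. With 1 value per gene Egfr was at 0.49, although its probe ZA-00031L11 was at -0.19. Of 1228 comparisons of single probes with an alternative, 90 changed sign where neither fit called the probe. Each array holds both RNAs, so the test of its ratio against 0 compares them within the array. With 1 group of arrays, no other pairing was used.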
